A study of Mus musculus with 100 samples.

Results

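The genes described here are 34 mouse interferon response genes, taken by name from a list of transcription factors, sensors, antiviral effectors, GTPases, chemokines and antigen-processing genes that interferons induce. All 34 were found among the 32484 genes with a chosen transcript in 5 tables of mouse fat RNA sequencing, and all 34 passed the filter on low values in each table. The study set out to compare fat from mice whose adipocytes lack GPS2, a protein of NCoR and SMRT corepressor complexes, with wild-type fat under different diets and during beta-adrenergic activation. Every sample, wild type included, carries the strain label Adipoq-Cre-Gps2flox/flox, so the genotype rests on the sample titles alone. In this model the adiponectin promoter drives Cre in adipocytes, and the other cells of the fat pad keep Gps2.

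The 5 tables are named as the submitters named them. CD held intra-abdominal fat of chow-fed mice aged 19 weeks, with 3 knockout and 3 wild-type samples. HFD held intra-abdominal fat of mice aged 11 weeks (4 knockout, 4 wild type), and the table's name gives a high fat diet of 4 weeks. Epi and Adipo came from mice aged 19 weeks, and their names give 12 weeks of that diet: Epi is whole intra-abdominal fat (3 knockout, 3 wild type) and Adipo is intra-abdominal adipocytes (2 knockout, 3 wild type). BA held inguinal fat of mice aged 8 weeks (4 knockout, 4 wild type), from the arm of the study on beta-adrenergic stimulation, whose agent and dose are not given in the labels. No label ties samples to animals, so each p-value reflects only how far the samples scatter, and that scatter may be technical. Values are read counts divided by a library size factor, called normalised reads below, and were compared only within a table.

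As background, type I interferons signal through IFNAR and a complex with STAT2 and IRF9 that binds the interferon-stimulated response element, or ISRE, in promoters. Interferon gamma signals through IFNGR and acts on promoters with the gamma-activated sequence, or GAS. In fat, macrophages, lymphocytes, endothelial cells and adipocytes can all express such genes, so RNA of a whole fat pad mixes their levels. GPS2 is known outside these data as a repressor of inflammatory gene programmes.

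The promoter window of RefSeq (250 bases before to 50 after the start site, build GRCm38.p6) was available for 28 of the 34 genes. Parp14, Ifi27, Oas2, Gbp4, Usp18 and Iigp1 were not matched. On either strand, the ISRE core GAAANNGAAA was found in 15 of the 28 windows (53.6%), against 3.99% of the windows of 27025 genes. The GAS core TTCNNNGAA, which reads the same on both strands, was found in 10 (35.7%), against 9.55% of all genes, and 5 members had both, against 0.54%. The next lines show the windows of the 4 genes with the smallest p in any table among those with a match, in lower case with the matches in capitals. They are Irf1 (chr11:53769764-53770063, plus strand), Cxcl10 (chr5:92348840-92349139, minus strand), Gbp2 (chr3:142620413-142620712, plus strand) and Igtp (chr11:58199306-58199605, plus strand).
Irf1: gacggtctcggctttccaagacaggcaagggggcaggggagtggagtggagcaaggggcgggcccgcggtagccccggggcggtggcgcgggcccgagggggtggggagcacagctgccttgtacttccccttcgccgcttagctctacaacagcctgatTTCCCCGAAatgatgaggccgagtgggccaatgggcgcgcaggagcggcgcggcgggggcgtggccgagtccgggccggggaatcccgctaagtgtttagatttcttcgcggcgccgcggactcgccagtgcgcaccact
Cxcl10: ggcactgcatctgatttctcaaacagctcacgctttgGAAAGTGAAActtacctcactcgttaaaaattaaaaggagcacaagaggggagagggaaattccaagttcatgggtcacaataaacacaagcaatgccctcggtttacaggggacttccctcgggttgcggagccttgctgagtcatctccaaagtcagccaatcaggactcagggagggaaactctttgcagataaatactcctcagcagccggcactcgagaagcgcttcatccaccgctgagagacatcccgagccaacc
Gbp2: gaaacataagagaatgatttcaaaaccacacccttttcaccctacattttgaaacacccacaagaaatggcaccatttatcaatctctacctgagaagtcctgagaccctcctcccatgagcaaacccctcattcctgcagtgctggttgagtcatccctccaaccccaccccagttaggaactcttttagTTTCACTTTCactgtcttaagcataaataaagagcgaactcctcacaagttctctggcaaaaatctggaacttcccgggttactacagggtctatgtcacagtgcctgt
Igtp: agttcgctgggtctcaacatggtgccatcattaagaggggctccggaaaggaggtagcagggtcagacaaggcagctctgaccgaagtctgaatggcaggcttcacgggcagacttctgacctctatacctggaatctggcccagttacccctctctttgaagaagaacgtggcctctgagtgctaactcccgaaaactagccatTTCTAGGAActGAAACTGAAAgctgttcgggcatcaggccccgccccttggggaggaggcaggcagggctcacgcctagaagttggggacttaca
The GAS core of the Irf1 window starts at base -90 from the start site, and that window has no ISRE core. The ISRE core of Cxcl10 starts at -213. In Gbp2 the ISRE core starts at -59 and lies on the other strand. Igtp has a GAS core at -45 and an ISRE core at -34, and these do not overlap. A match describes the letters and says nothing of binding in these samples.

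Recovered reads per sample, counted over the chosen transcripts, ranged from 29444602 to 63456837 over the tables. A few libraries stood apart and touch the results below. The libraries labelled CD knockout 1 and 2 and Epi knockout 2 and 3 carried epididymis RNA: Adam7, an epididymis gene, stood at 29586, 28657, 21474 and 5019 normalised reads there, against at most 4.91 in the other samples of those tables. Other epididymis markers were also raised in CD wild type 2 and Epi wild type 1, where the list of 10 summed to 43882 and 10517. CD knockout 1 and 2 were also nearly alike (chi-square over genes 7.17 for each degree of freedom, where the other CD pairs within a genotype gave 203 to 1080). In Adipo the 6 endothelial markers summed to 30207 and 12692 in the knockout samples, against 1798 to 3359 in the wild-type samples, with none of the 6 at 0. Macrophage markers summed highest in wild type 3 of both Epi (125870, against 58638 to 72081 in the other Epi samples) and Adipo (23989, against 3658 to 14000 in the other Adipo samples). The chosen Gps2 transcript itself had 811 and 839 normalised reads in the Adipo knockout samples, against 851, 803 and 755 in wild type, and its groups overlapped in the other tables too. The labels do not say which exons are deleted, so that row does not check the labels, and knockout below always means the label. In bulk samples, fewer cells of a type and less RNA per cell cannot be told apart.

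Of the 34 genes, 2 passed the test in a table, Irf1 in adipocytes and Cxcl9 in HFD fat, both higher in knockout. In Epi no member passed, and 29 of the 34 had a lower knockout mean on the log scale, beside 9395 of all 17685 genes tested. Without wild type 3, which was highest in Epi for 27 of the 34, 24 were lower. The test was limma on log2(value + 1) with Benjamini-Hochberg adjustment over all genes of a table at 0.05. In Adipo 1 of 34 passed, higher, with 0.632% of all genes tested called (0.540% higher, 0.0912% lower). In HFD 1 of 34 passed, higher, with 3.45% of all genes called (1.01% higher, 2.45% lower). In BA none passed, with 0.0322% of all genes called. In CD and Epi neither a member nor any other gene passed (0% called). Where limma called 0 members, edgeR also called 0 in CD, Epi and BA. DESeq2 called 1 in CD (6.08% of all genes), 5 in Epi (3.02% of all genes) and 0 in BA (270 of all 12418 genes).

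Without adjustment, p was under 0.05 for 0 members in CD, beside 9.64% of all genes, and for 9 in HFD, beside 20.8%. It was under 0.05 for 8 members in Epi (9.19% of all genes), 9 in Adipo (24.2%) and a single one, Cxcl9, in BA (9.04%). The median log2 difference, knockout minus wild type, was -0.14 over the members and 0.11 over all genes in CD, and -0.15 and -0.09 in HFD. In Epi it was -0.34 over the members and -0.03 over all genes, and the members' median was -0.12 without wild type 3 and -0.13 without knockout 2 and 3. It was -0.09 and -0.04 in Adipo, and -0.02 and 0.01 in BA. The sign of the members' median turned in CD without knockout 1 and 2 (0.21), in Adipo without wild type 3 (0.06) and in BA without knockout 1 (0.10), among other settings in BA. Positive differences were found for 11 members in CD (8 after TMM scaling) and 7 in HFD (13). Epi had 5 under both scalings, Adipo 13 (14 after TMM scaling) and BA 16 (15), so the split in HFD depends on the scaling. Before TMM scaling, 9638 of all 15617 genes were positive in CD, 5196 of 14069 in HFD and 8290 of 17685 in Epi. In Adipo 6660 of 14248 were positive, and in BA 6375 of 12418.

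Groups that did not overlap were counted as well. In Adipo 6 members lay wholly higher and 9 wholly lower in knockout, as did 20.7% and 27.3% of all genes. In HFD 2 lay wholly higher and 1 wholly lower, as did 4.04% and 10% of all genes. In Epi 0 lay wholly higher and 9 wholly lower, beside 7.32% and 9.14% of all genes. In CD no member separated in either direction, beside 12.4% higher and 4.57% lower of all genes, and in BA none did, beside 3.26% and 2.22%.

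**Figure D1:**
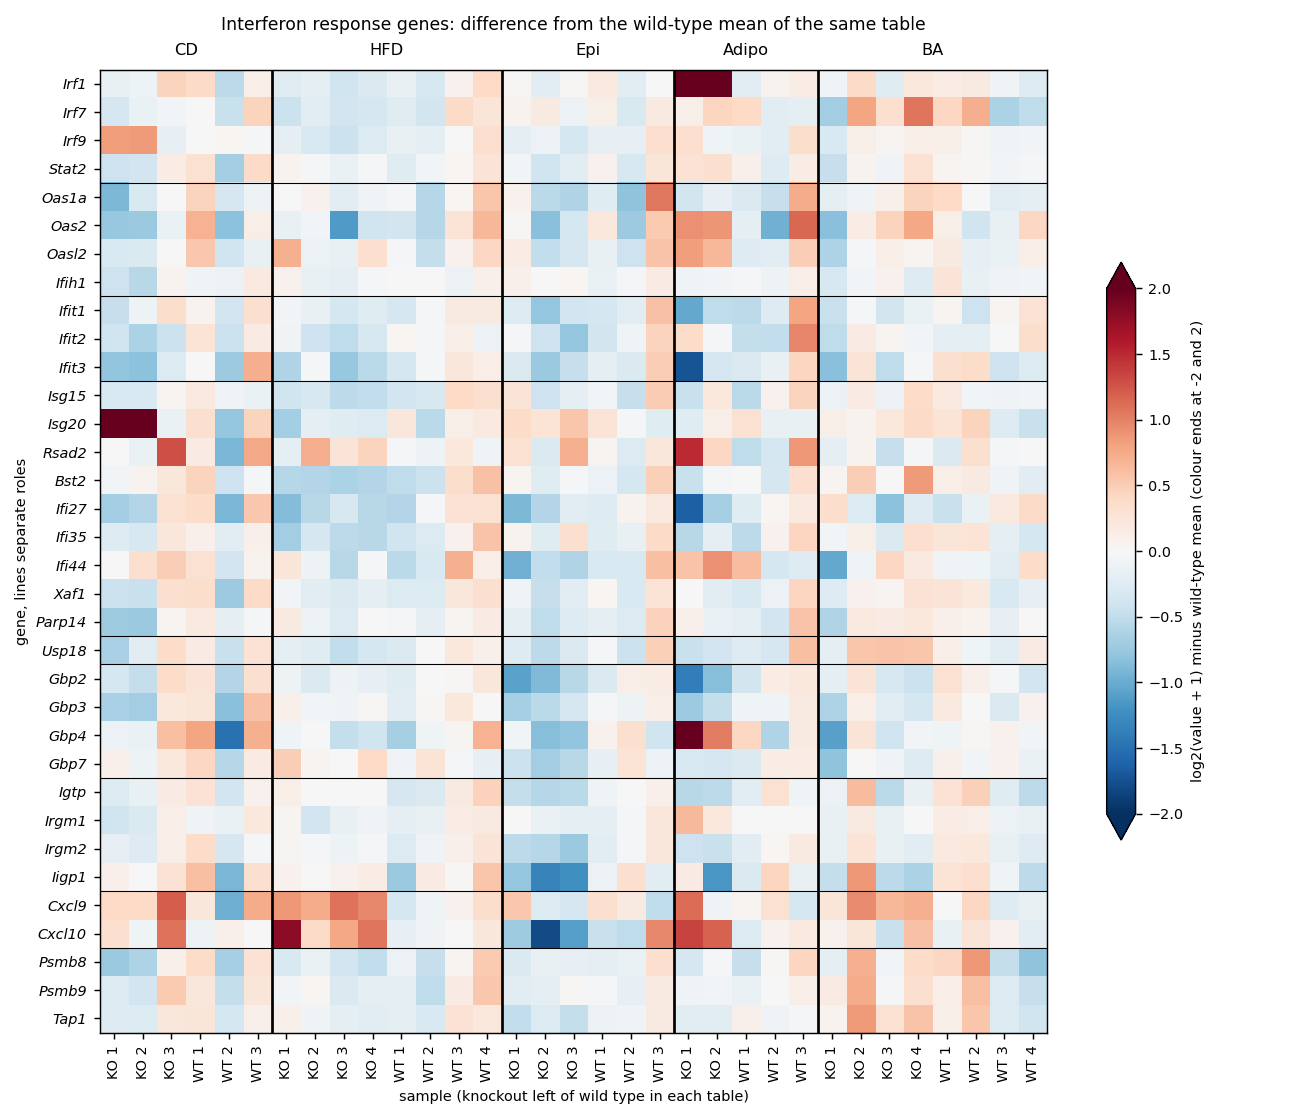
Each cell shows 1 gene in 1 sample as log2(value + 1) minus the wild-type mean of the same table, with knockout samples left of wild type in each table and lines between roles. Red in the 2 Adipo knockout samples marks Irf1 and in CD knockout 1 and 2 marks Isg20, while the last wild-type columns of Epi, Adipo and HFD are red over many genes.

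Much of the spread ran between samples of 1 genotype. Epi wild type 3 had the highest value of its table for 27 of the 34 genes, and Adipo wild type 3 for 20, the samples in which macrophage markers were also highest. HFD wild type 4 was highest for 19. CD wild type 2 was lowest for 21. In BA the knockout samples differed among themselves, with knockout 4 highest for 11 genes, knockout 2 for 9 and knockout 1 lowest for 15. The matching shares of all genes are not given here, so these counts are not read as particular to the 34 genes. Over genes in general, CD wild type 2 gave a chi-square of 935 and 1080 for each degree of freedom against wild type 1 and 3. Wild type 1 against 3 gave 203. The part of macrophage content in these profiles was not tested.

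Per length, Ifi27, an interferon-induced mitochondrial protein gene, had the highest level of the 34 in wild type of each table. Its level ranged from 750 ± 284 TPM in CD (SD, n = 3) to 2312 ± 411 TPM in BA (n = 4). Bst2, which encodes tetherin, came next in CD, HFD, Epi and BA, at 142 ± 27.5 to 178 ± 39.8 TPM. In Adipo the next was Gbp2 at 95.1 ± 21.0 TPM. Cxcl10 was the lowest of the 34 in HFD wild type, at 1.29 ± 0.066 TPM (n = 4), and ranked 6 of 34 in Adipo wild type, at 36.6 ± 6.77 TPM (n = 3), where Gbp4 was the lowest at 0.756 ± 0.256 TPM. TPM was computed from the chosen transcript of each gene.

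Among the transcription factors, Irf1 passed the test. Irf1 (ENSMUSG00000018899, chr11:53770014-53778374, plus strand, 10 exons, GRCm38) encodes the factor that carries much of the interferon gamma response. In Adipo it had 8819 and 7485 normalised reads in the knockout samples, against 776, 952 and 1001 in the wild-type samples. The groups lay far apart. The log2 difference was 3.17 ± 0.16 (SE; limma adjusted p = 0.0069), a ratio of means of 8.96. Irf1 no longer passed without knockout 1 (3.05, adjusted p = 0.0704) or without trend and robust moderation (adjusted p = 0.0629).

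In whole fat of the same diet, Irf1 had 2309, 1963 and 2329 in the Epi knockout samples, against 2601, 1979 and 2306 in the wild-type samples. These groups overlapped, and the log2 difference was -0.06 ± 0.14 (adjusted p = 0.92). The difference between both effects, Adipo minus Epi, was 3.22 ± 0.22 (limma interaction, adjusted p = 0.000477), and Irf1 was the member called there, with 1.66% of all genes called. Irf1 overlapped between the groups in CD, HFD and BA too, where the log2 differences were 0.07 ± 0.29, -0.28 ± 0.14 and 0.07 ± 0.16.

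Other genes of rapid induction moved with Irf1 in the adipocytes, as a list chosen after their values had been seen. Of 11 immediate early genes, 8 were called higher in the Adipo knockout samples beside 0.540% of all genes. All 11 had groups that did not overlap, beside 20.7% of all genes wholly higher. Because the list was chosen by such values, these counts are no test of it. Fos had 64836 and 79831, against 15973, 17327 and 12776, and Atf3 had 18006 and 27805, against 1987, 1550 and 1531. Socs3, the feedback inhibitor of cytokine receptors, had 13201 and 15298 in the knockout samples, against 208, 662 and 784 in wild type (log2 difference 4.90 ± 0.57, adjusted p = 0.0405). Both inducible HSP70 genes were called lower, with Hspa1a at 1182 and 864 in knockout and 16096, 15414 and 12962 in wild type. Pecam1, an endothelial gene, had 8226 and 3452 in knockout and 798, 466 and 917 in wild type. Dendritic cell markers summed to 294 to 443 in the Adipo knockout samples and 131 to 144 in wild type. In the knockout mean, 11 of 13 T and NK cell, 8 of 9 B cell and 6 of 7 stromal markers were higher, though their sums overlapped. Of the macrophage markers 7 of 14 were higher, and of the neutrophil markers 3 of 6. The part of these genes, and of RNA from endothelial and other cells, in the Irf1 difference was not tested.

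The other 3 factors did not pass in any table. Stat2 in Adipo had 698 and 715 in knockout, against 614, 482 and 640 in wild type (log2 difference 0.30 ± 0.17, adjusted p = 0.322). Its groups did not overlap there, as for 20.7% of all genes with knockout higher. Irf7, the amplifier of type I interferon, ranged from -0.34 ± 0.16 in HFD to 0.37 ± 0.41 in BA. In Epi, Irf7 had 1297, 1396 and 1138 in knockout and 1340, 1004 and 1398 in wild type.

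Irf9, the DNA-binding partner of STAT2, had 826, 831 and 414 in the CD knockout samples, against 460, 475 and 450 in wild type. The high values were those of knockout 1 and 2, the libraries with epididymis RNA, and knockout 3 lay below wild type. The log2 difference was 0.51 ± 0.29 (adjusted p = 0.562). It was -0.16 without knockout 1 and 2, and 0.84 without knockout 3 (limma adjusted p = 0.0262). That p counts knockout 1 and 2 as separate samples although they were nearly alike, and 4.13% of all genes were called in that fit. With knockout 1 and 2 averaged to 1 sample, 0 members were called.

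**Figure D2:**
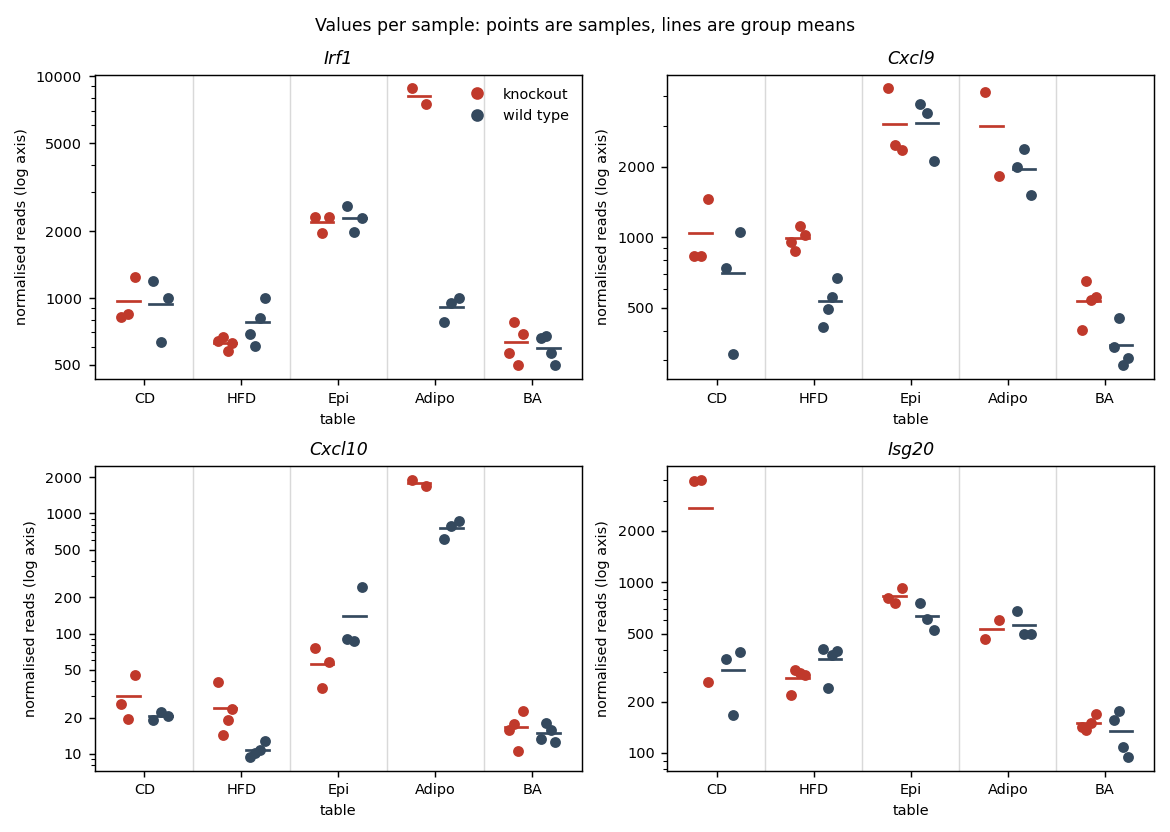
Normalised reads per sample on a log axis for Irf1, Cxcl9, Cxcl10 and Isg20 in the 5 tables, with points for samples, lines for group means and knockout left of wild type. Irf1 separates in Adipo alone of the 5 tables, Cxcl9 and Cxcl10 separate in HFD, Cxcl10 also in Adipo and, with wild type higher, in Epi, and Isg20 in CD splits the knockout samples into 2 high and 1 low.

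The chemokines Cxcl9 and Cxcl10 attract T cells that carry CXCR3, and interferon gamma induces both. Cxcl9 (ENSMUSG00000029417, chr5:92321347-92328079, minus strand) had 958, 877, 1122 and 1023 normalised reads in the HFD knockout samples, against 413, 496, 557 and 669 in wild type. Every knockout value exceeded every wild-type value, as for 4.04% of all genes. Cxcl9 was thus higher in HFD knockout fat, with a log2 difference of 0.91 ± 0.15 (adjusted p = 0.0127) and a ratio of means of 1.86. Without knockout 3 or without knockout 4 the adjusted p was 0.0529 and 0.0553.

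Cxcl9 had no separation of the groups in the other tables. In BA it had 402, 653, 539 and 555 in knockout, against 339, 453, 284 and 306 in wild type, with wild type 2 inside the knockout range (log2 difference 0.64 ± 0.18, adjusted p = 0.274). CD had 829, 829 and 1459 in knockout and 742, 319 and 1058 in wild type (0.67 ± 0.48, adjusted p = 0.635). Epi had 4327, 2474 and 2369 in knockout and 3727, 3403 and 2109 in wild type, a difference of -0.03 ± 0.31. Adipo had 4175 and 1830 in knockout and 1996, 2373 and 1510 in wild type. The difference between the HFD and CD effects was 0.25 ± 0.47 (adjusted p = 0.808).

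Cell markers stood as follows beside Cxcl9. In HFD the 13 T and NK cell markers summed to 268 to 320 in knockout and 140 to 333 in wild type, with 11 of the 13 higher in the knockout mean and 1 called. The 14 macrophage markers summed to 19050 to 19894 in knockout and 12121 to 22951 in wild type. In BA the T and NK cell markers summed to 145 to 323 in knockout and 105 to 237 in wild type, with all 13 higher in the knockout mean and none of the 10 tested called by limma. The BA macrophage markers summed to 9201 to 13557 in knockout and 7753 to 11172 in wild type, with 13 of 14 higher in the knockout mean. Their part in the Cxcl9 values was not tested.

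Cxcl10 (ENSMUSG00000034855, chr5:92346638-92348889, minus strand) missed the test in each table, and its values went both ways. In HFD it had 39.6, 14.3, 19.0 and 23.5 in knockout, against 9.47, 10.1, 10.8 and 12.7 in wild type. The groups did not overlap, at low levels (1.00 ± 0.32, adjusted p = 0.118). In Adipo it had 1904 and 1701 in knockout, against 617, 792 and 857 in wild type, again with no overlap (1.27 ± 0.18, adjusted p = 0.0517).

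The adjusted p of Cxcl10 in Adipo was 0.0354 after TMM scaling and 0.0378 with edgeR, so this call depends on the method. Epi ran the other way, with 75.6, 35.4 and 57.5 in knockout and 90.6, 87.0 and 242 in wild type (-1.20 ± 0.52, adjusted p = 0.551). CD had 26.2, 19.4 and 45.1 in knockout and 19.2, 22.2 and 20.7 in wild type, and the BA groups overlapped as well. The Adipo minus Epi difference of Cxcl10 was 2.46 ± 0.60 (adjusted p = 0.0823). An exon of Art3 on the other strand covers 12.2% of the transcript, and the labels do not say whether reads were counted by strand.

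The GBP and IRG families are GTPases that interferon gamma induces and that attack vacuoles of intracellular microbes. In Epi, 6 of these 8 genes had knockout groups wholly below wild type, as for 9.14% of all genes, though none passed the test by limma or edgeR. DESeq2 called 5 of them lower, Gbp2, Gbp3, Igtp, Irgm2 and Iigp1, beside 1.82% of all genes called lower by it. The median log2 difference of the 8 was -0.56, against -0.03 over all genes. Markers of immune cells stood as follows beside these genes in Epi. The 13 T and NK cell markers had a mean log2 level of 4.93 to 5.62 in knockout and 5.73 to 6.02 in wild type, with 1 of the 13 higher in the knockout mean, although their sum, 578 to 2450 in knockout and 780 to 1013 in wild type, overlapped. The 6 neutrophil markers summed to 233 to 332 in knockout and 399 to 670 in wild type, with no overlap. The sums of the other immune lists overlapped. Macrophage markers summed to 61075 to 72081 in knockout and 58638 to 125870 in wild type, with 3 of 14 higher in the knockout mean. Dendritic cell markers summed to 1192 to 1363 and 1311 to 1643, with 1 of 7 higher. B cell markers summed to 300 to 890 and 441 to 973, with 3 of 9 higher. None of the markers in these lists was called, and their part in the GTPase values was not tested. Members of these families are close copies of each other, so reads may be shared among them, and Igtp and Irgm2 overlap on the same strand over 8.01% and 4.67% of their transcripts.

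Iigp1 had 1202, 810 and 876 in the Epi knockout samples, against 1893, 2571 and 1776 in wild type. Its log2 difference was -1.11 ± 0.21 (adjusted p = 0.317). Gbp2 had 2832, 3229 and 4035 in knockout, against 4894, 6551 and 6573 in wild type (-0.84 ± 0.18, adjusted p = 0.341). For both genes the groups did not overlap and the highest knockout sample differed between the genes.

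Igtp was the tightest of the family, at 805, 755 and 771 in knockout, against 1049, 1107 and 1205 in wild type (-0.53 ± 0.12, adjusted p = 0.35). Irgm2 had 1368, 1326 and 1183 in knockout, against 1710, 1954 and 2310 in wild type (-0.61 ± 0.145, adjusted p = 0.352). Gbp3 and Gbp7 also did not overlap, at -0.51 ± 0.14 and -0.56 ± 0.16, while Gbp4 and Irgm1 did. Leaving out wild type 3, the sample with high macrophage markers, gave -1.22 for Iigp1, -0.77 for Gbp2, -0.47 for Igtp and -0.50 for Irgm2. Leaving out knockout 2 and 3, the libraries with epididymis RNA, gave -0.77, -1.07, -0.47 and -0.53 for the same genes.

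**Figure D3:**
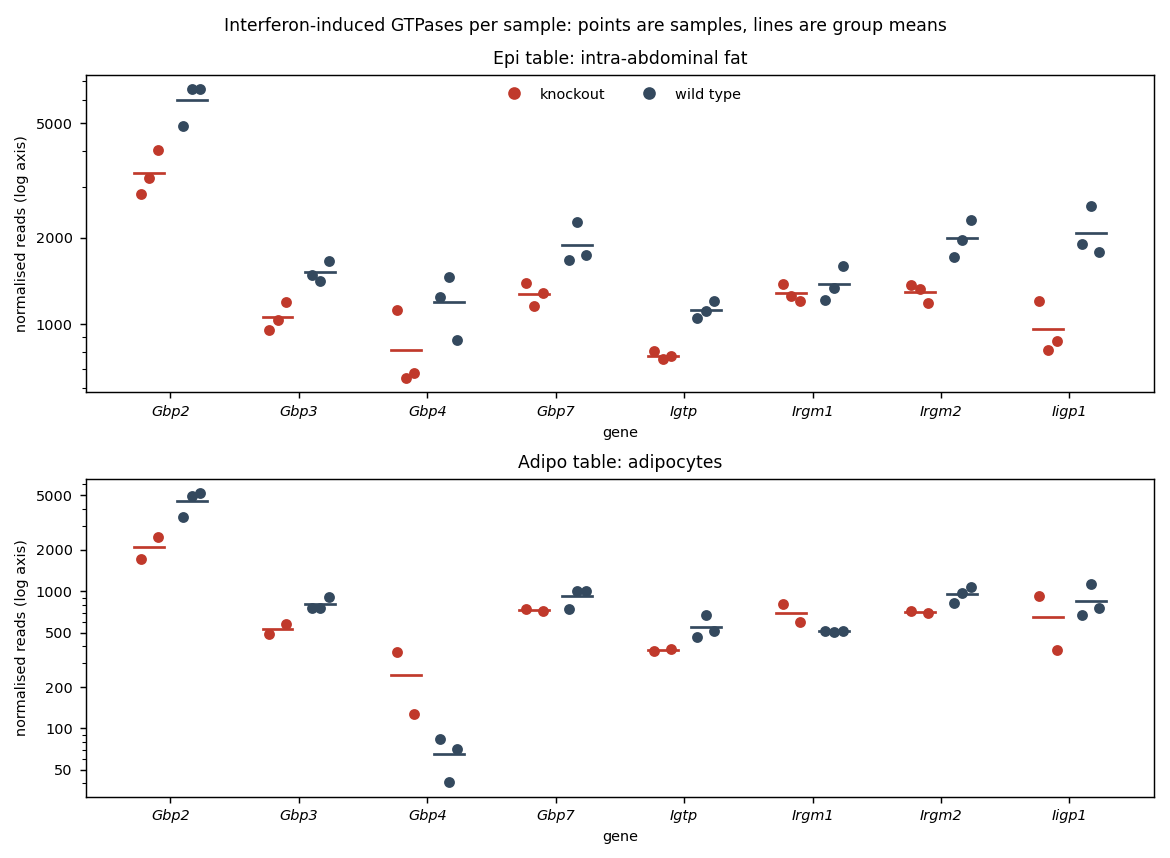
Normalised reads per sample on a log axis for the 8 GBP and IRG GTPases in Epi and Adipo, with points for samples, lines for group means and knockout left of wild type. Gbp2, Gbp3, Gbp7, Igtp and Irgm2 lie wholly below wild type in both tables, Gbp7 in Adipo only narrowly, while Gbp4 and Irgm1 in Adipo lie above it.

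In Adipo the family split. Gbp2 had 1713 and 2470 in knockout, against 3464, 4911 and 5175 in wild type (-1.11 ± 0.24, adjusted p = 0.0915). Gbp4 went the other way, with 364 and 128 in knockout, against 83.2, 40.7 and 70.6 in wild type (1.78 ± 0.55, adjusted p = 0.137). Irgm1, a regulator of the other IRG proteins, had 803 and 592, against 514, 505 and 513 (0.43 ± 0.17). The 6 endothelial markers summed to 12692 to 30207 in the Adipo knockout samples and 1798 to 3359 in wild type. Their part in the GBP and IRG values of Adipo was not tested.

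Knockout groups lay wholly below wild type for Gbp2, Gbp3, Gbp7, Igtp and Irgm2, which is 5 of 8, beside 27.3% of all genes. Gbp7 did so only narrowly, with 739.0 and 716.6 in knockout, against 740.5, 1006.6 and 1008.9 in wild type. Deviations from the group means correlated between Epi and Adipo samples of the same number (r from 0.106 to 0.595, over genes), so these tables were not taken as independent support for each other. Gbp9, another GBP gene, had 595 and 252 in the Adipo knockout samples, against 118, 66.8 and 147 in wild type (1.87 ± 0.49, adjusted p = 0.113). Exons of Gbp8 and Gbp9 cover 1.34% of the Gbp4 transcript on the same strand.

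In CD, HFD and BA none of the 8 GTPases had groups that did not overlap, and their median differences were -0.09, -0.02 and -0.18. The largest of them in BA were Gbp4, with 93.8, 239, 152 and 191 in knockout and 188, 205, 213 and 193 in wild type, and Gbp7, with 126, 220, 209 and 183 in knockout and 236, 212, 232 and 201 in wild type. Gbp3 in BA had 235, 397, 312 and 284 in knockout and 416, 362, 297 and 382 in wild type. The low value in each was knockout 1, and the differences were -0.32 ± 0.24 for Gbp4, -0.28 ± 0.17 for Gbp7 and -0.26 ± 0.17 for Gbp3. Without knockout 1 they were -0.066, -0.11 and -0.14 for the same genes.

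Among the other antiviral effectors, Isg20, an exonuclease of RNA, had the widest range. In CD it had 3902, 3993 and 262 in knockout, against 356, 167 and 390 in wild type. The high values were those of the libraries labelled knockout 1 and 2, and knockout 3 lay within wild type (2.48 ± 1.11, adjusted p = 0.528). Without those 2 libraries the difference was -0.13. In Epi, where knockout 2 and 3 carried epididymis RNA, Isg20 had 810, 753 and 920 in knockout, against 758, 610 and 527 in wild type (0.40 ± 0.18, adjusted p = 0.556), with no such step in knockout 2 and 3.

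Ifi27 was lower in mean in knockout samples of all 5 tables and overlapped in 4 of them. In Adipo it had 8179 and 15916 in knockout, against 21390, 26076 and 28998 in wild type (-1.15 ± 0.31, adjusted p = 0.117). HFD had 4424, 5466, 6466 and 5501 in knockout and 5384, 7971, 9905 and 9981 in wild type (-0.58 ± 0.21, adjusted p = 0.16). The HFD value was called without wild type 1 (-0.77, adjusted p = 0.0201), the lowest wild-type sample. In Epi the difference was -0.57 ± 0.21, in CD -0.32 ± 0.47 (0.31 without knockout 1 and 2) and in BA -0.25 ± 0.27.

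Bst2 had the narrow knockout range 679 to 710.5 in HFD, against 736 to 1573 in wild type, and the groups did not overlap, as for 10% of all genes with knockout lower (-0.59 ± 0.23, adjusted p = 0.184). In BA, Bst2 had 803, 1083, 772 and 1400 in knockout, against 845, 871, 732 and 659 in wild type, with overlap (0.35 ± 0.19). Rsad2, which encodes viperin, had 1172, 778 and 1560 in the Epi knockout samples, against 983, 788 and 1107 in wild type (0.24 ± 0.27). Parp14, an ADP-ribosyltransferase, had 478, 471 and 815 in the CD knockout samples, against 904, 697 and 770 in wild type (-0.47 ± 0.25), and 0.05 without knockout 1 and 2. The remaining effectors Isg15, Ifi35, Ifi44 and Xaf1 overlapped in every table except Ifi44 in Epi, where knockout had 113 to 156 and wild type 178 to 333.

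The OAS and RNA sensors, Oas1a, Oas2, Oasl2 and Ifih1, detect viral RNA, and none of the 4 passed in any table. In CD their differences ranged from -0.55 to -0.20. Ifih1, which encodes MDA5, had 216, 196 and 304 in the CD knockout samples, against 274, 266 and 333 in wild type (-0.30 ± 0.21, adjusted p = 0.625), and 0.07 without knockout 1 and 2. In Epi it had 1334, 1237 and 1276, against 1138, 1215 and 1404 (0.04 ± 0.13). Oasl2 had 220 and 195 in the Adipo knockout samples, against 102, 104 and 173 in wild type, with no overlap (0.75 ± 0.32, adjusted p = 0.216).

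The IFIT genes encode proteins that bind viral RNA. None of Ifit1, Ifit2 and Ifit3 passed in any table. In CD, Ifit2 had 115, 97.6 and 112 in knockout, against 183, 112 and 170 in wild type (-0.49 ± 0.24, adjusted p = 0.54). Ifit3 had 104, 101 and 149 there, against 181, 108 and 297 (-0.63 ± 0.40, adjusted p = 0.594). The groups overlapped for both.

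In BA, Ifit1 had 57.0, 76.5, 60.5 and 71.8 in knockout, against 81.8, 58.6, 81.8 and 96.1 in wild type (-0.25 ± 0.18). Ifit3 in Adipo had 231 and 610 in knockout, against 626, 695 and 1037 in wild type, with no overlap (-1.03 ± 0.44, adjusted p = 0.224). Usp18, which removes ISG15 and damps the type I receptor, had 70.3, 118, 120 and 118 in the BA knockout samples, against 88.7, 75.5, 69.7 and 89.9 in wild type (0.37 ± 0.19, adjusted p = 0.63), and 3 of the 4 knockout values lay above wild type.

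The antigen-processing genes are the immunoproteasome subunits Psmb8 and Psmb9 and the peptide transporter Tap1, which lie next to each other on chromosome 17. Exons of Psmb9 and Tap1 overlap on opposite strands over 15.7% of the Psmb9 transcript and 7.18% of the Tap1 transcript, so reads there may be shared. Tap1 had 1332, 1554 and 1352 in the Epi knockout samples, against 1739, 1787 and 2134 in wild type, with no overlap (-0.41 ± 0.13, adjusted p = 0.459). In BA the direction was the other, with 476, 820, 562 and 672 in knockout and 493, 668, 376 and 344 in wild type (0.45 ± 0.23, adjusted p = 0.615), and the groups overlapped. None of the 3 genes passed in any table. In CD the differences were -0.42 for Psmb8, -0.04 for Psmb9 and -0.10 for Tap1, and 0.098, 0.52 and 0.22 for the same genes without knockout 1 and 2.

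**Figure D4:**
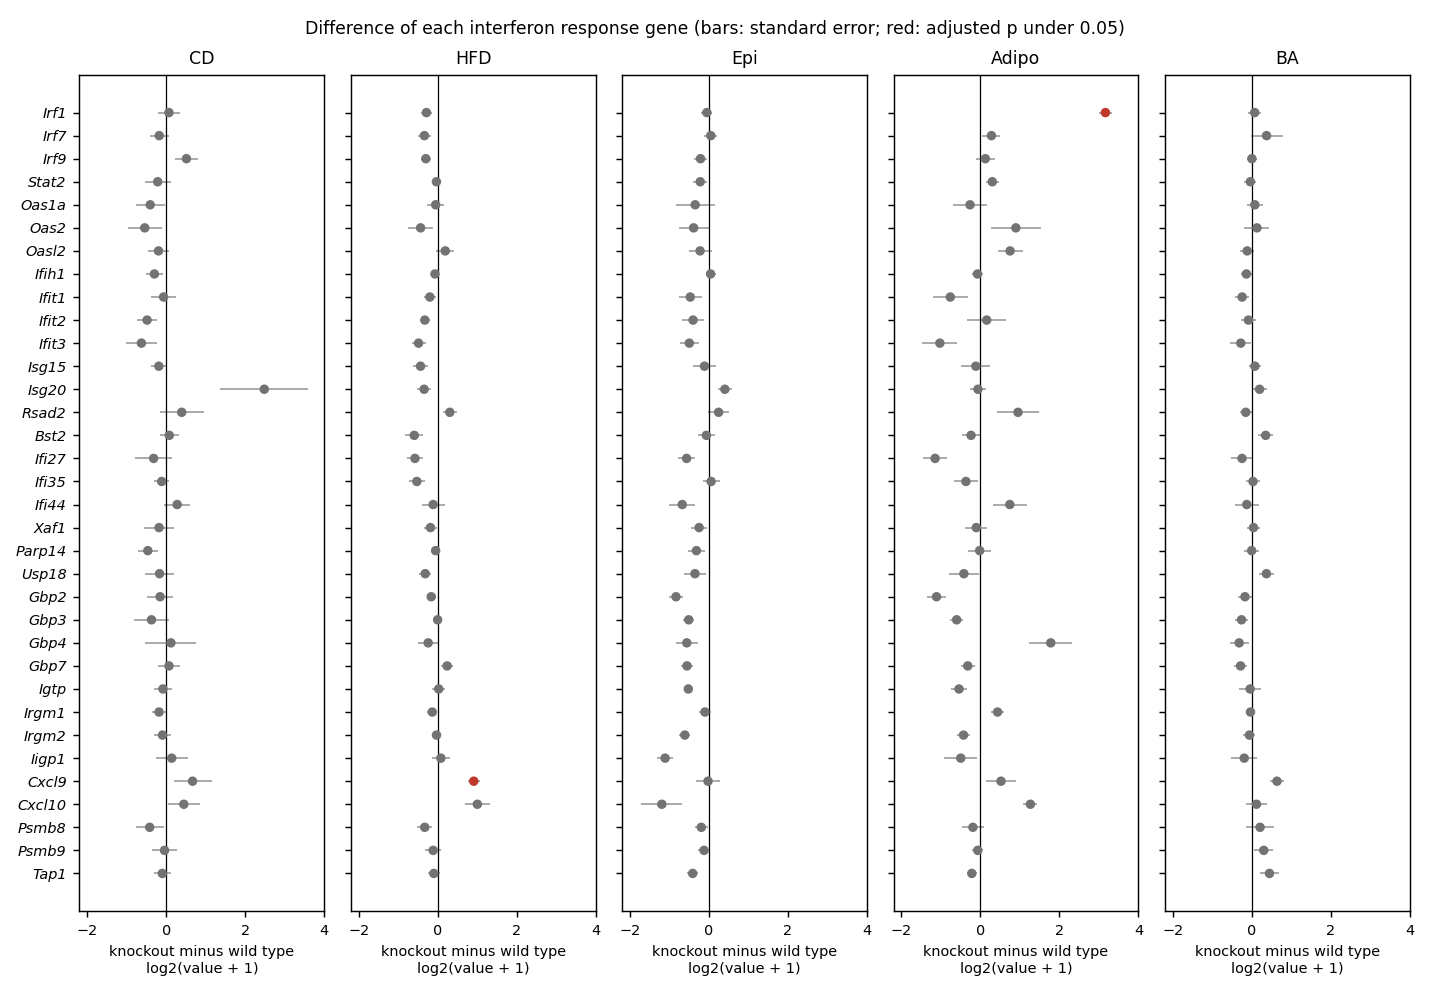
Knockout minus wild-type difference of each of the 34 genes on the log2(value + 1) scale, with standard errors, in the 5 tables; red marks an adjusted p under 0.05. Irf1 in Adipo at 3.17 and Cxcl9 in HFD at 0.91 are the called points, and Isg20 in CD at 2.48 has the widest error.

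Around the 34 genes, 93 further genes of the pathway were followed as 7 lists. None of the 4 interferon ligand genes reached the filter of a mean of 10 in any table. Ifng had 0, 1.65 and 2.57 normalised reads in the Epi knockout samples, against 3.07, 7.45 and 12.3 in wild type, which did not overlap but were not tested. CD had 1.42, 3.86 and 9.59 in knockout, against 2.26, 1.83 and 2.52 in wild type. Ifnb1 was at most 1.02 in any sample. None of the interferon receptors, of the 8 JAK-STAT and IRF signalling genes or of the 16 MHC genes passed in a table.

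In HFD 4 of 81 tested pathway genes were called, against 3.45% of all genes. Irf2bp2, a corepressor that binds IRF2, had 943, 1007, 904 and 1037 in knockout, against 585, 473, 466 and 525 in wild type (0.93 ± 0.10, adjusted p = 0.00237). Gbp9 was higher as well (0.50 ± 0.12, adjusted p = 0.0498). Dhx58, an RNA helicase of the MDA5 family, had 95.0, 91.3, 81.8 and 82.1 in knockout, against 125, 123, 162 and 134 in wild type (-0.63 ± 0.13, adjusted p = 0.0307). Parp9 had 542, 592, 555 and 577, against 740, 747, 773 and 791 (-0.43 ± 0.07, adjusted p = 0.0165). Of these 4, Irf2bp2 and Gbp9 were higher and Dhx58 and Parp9 lower. In Adipo, Socs3 was the 1 of 84 called, beside 0.632% of all genes. In CD (85 tested), Epi (87) and BA (85) limma called none. Without adjustment, p was under 0.05 for 22 pathway genes in HFD (20.8% of all genes), 22 in Adipo (24.2%), 11 in BA (9.04%), 8 in Epi (9.19%) and 4 in CD (9.64%).

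The effects of genotype were also compared between tables. In HFD minus CD, limma called 0 of 34 members (2 at an unadjusted p under 0.05, beside 17.4% of all genes; edgeR 0; DESeq2 1, beside 3.83%), with 0% of all genes called. In Epi minus CD it called 0 as well (2 at an unadjusted p under 0.05, beside 8.34% of all genes; edgeR 0, DESeq2 0), with 0% of all genes called. TMM scaling moved the median of all genes in HFD minus CD to 0.02, against -0.18 before it. That of the members moved to 0.20, against 0.00. With all samples in, the members' median thus lay above that of all genes under either scaling. Before TMM scaling 18 of the 34 members had a positive difference. This count was 11 without CD wild type 1 or without CD wild type 3, and 27 without CD wild type 2. In Adipo minus Epi, beside Irf1, the pathway genes Socs3 (4.88 ± 0.61, adjusted p = 0.00833) and Uba7, the enzyme that activates ISG15 (1.17 ± 0.19, adjusted p = 0.0197), were called. Uba7 had 430 and 447 in the Adipo knockout samples, against 226, 185 and 215 in wild type. The Epi knockout samples had 1362, 1215 and 1224 for Uba7, against 1477, 1274 and 1309 in Epi wild type, and overlapped.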

How the data were processed

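RNA of mouse fat and adipocytes was sequenced with a stranded TruSeq mRNA kit, per the labels' protocols. The authors deposited read counts per transcript divided by a size factor, a normalised signal, in 5 separately scaled tables; STAR 2.4.0k, HTSeq 0.5.3, DESeq 1.8.3 and GRCm38.p4 are named in the submitters' processing notes. Whole reads were recovered in 96 of 99 libraries (within 0.01 of a read), and 100% of values there came out whole. In CD, HFD and BA each sample is the mean of its sequenced libraries. Of 100 samples in the series, 99 were used; 1 column whose name matched no sample was not used, and the third Adipo knockout sample was not analysed here. Rows of 698 transcripts without a gene, 0.321% of the values, were left out.

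For each gene, 1 transcript was taken, the highest in mean of the gene's own type. Genes with a mean of at least 10 in a table were tested on log2(value + 1) with limma 3.58.1 (trend and robust moderation, R 4.3.3), Benjamini-Hochberg adjusted over all genes at 0.05; differences on that scale understate changes of low genes. Differences between tables were tested as interaction terms. edgeR 4.0.16 and DESeq2 1.42.0 on recovered reads, TMM scaling, other filters and pseudocounts, summed transcripts, a replicate block and left-out samples were the alternatives. Samples of the same number gave r from -0.521 to 0.527 over genes for knockout against wild type within a table, with both signs. Epi and Adipo samples of the same number gave 0.106 to 0.595. Samples of different numbers were not compared, so pairing was not established. The main Adipo minus Epi fit ignored the numbers, and with the replicate block it also called 1 member (1.63% of all genes).

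The 34 members and all lists were chosen with earlier results of these data known. Genes named are, per table, those past the test, or else the 4 higher and 4 lower of smallest p; Cxcl10, Gbp2, Gbp4 and Ifi27 in Adipo, Cxcl10, Ifi27 and Bst2 in HFD, the remaining unlisted examples and the immediate early and HSP70 genes were chosen after their values were seen. Promoter windows came from RefSeq.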

Additional observations from a re-analysis of the deposited data

Results flagged for a closer look

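The Irf1 difference between samples labelled knockout and wild type differed by 3.22 on the log2 scale between Adipo and Epi (Adipo minus Epi, limma interaction). The Adipo groups also differed in immediate early, HSP70 and endothelial RNA, and the part of these in the Irf1 difference was not tested.

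In groups of 4, 6 of 136 sets of values had 1 sample far from the others, and chance gives about 1 in 20. In HFD, Igtp had 248 normalised reads in knockout 1, against 226 to 228 in the other knockout samples. In BA, knockout 1 was low for Parp14, at 286, against 488 to 503 in the other knockout samples, and for Usp18, at 70.3, against 118 to 120. BA knockout 2 was high for Irgm2, at 530, where the other knockout samples had 380 to 396, and for Iigp1, at 1009, where they had 358 to 400. BA wild type 1 was high for Isg15, at 104, where the other wild-type samples had 86.1 to 87.1.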

How the results depend on the processing

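Of 575 recalculations of 33 named values, 539 kept direction and side of the threshold, 4 lost a call, 25 gained one and 7 reversed; for each change the cause was not tested. Isg20 in CD was -0.13, Irf9 -0.16, Parp14 0.052 and Ifih1 0.071 without knockout 1 and 2, a choice made after seeing the data. Leaving out 1 sample in turn gave -0.11 to 0.13 for Irf7 and -0.028 to 0.12 for Ifih1 in Epi. Members called in Adipo numbered 2 with TMM scaling (0.835% of all genes), 0 without trend and robust moderation (0%) and 3 without a filter (1.66%). They numbered 2 at a minimum of 50 (0.833%), 2 with edgeR (1.15%) and 6 with DESeq2 (12.7%). The replicate block gave 5 (9.9%), though its numbers were not shown to pair the samples within a table. The block changed no other table's count. DESeq2 called 1 in CD (6.08% of all genes), 3 in HFD (10.5%), 5 in Epi (3.02%), 1 in HFD minus CD (3.83%) and 3 in Adipo minus Epi (5.79%), where edgeR called 2. Without HFD wild type 1 and knockout 1 together, HFD had 2 (3.24% of all genes). Leaving out 1 sample in turn gave 0 to 2 in CD, HFD and HFD minus CD, and 0 to 1 in Epi minus CD. With more than 1 sample left in each group, it gave 1 to 2 in Adipo and 1 in Adipo minus Epi. The latter stood beside 0.233% to 4.69% of all genes. The highest counts stood beside 4.13% of all genes in CD (without knockout 3) and 8.5% in HFD (without wild type 1). In Adipo the share was 5.08% (without wild type 3). For HFD minus CD and Epi minus CD it was 5.3% and 1.19%, both without CD knockout 3. Without CD knockout 3, the calls in CD were Irf9 and Isg20, beside 4.13% of all genes (3.98% higher). That fit rests on knockout 1 and 2, the nearly alike libraries with epididymis RNA. With those 2 averaged to 1 sample, limma called 0 members and 0% of all genes. BA had 0 under all 18 alternatives. The 2 to 4 samples a group limit the precision of every difference.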
